A study of Mus musculus with 7 samples.

Results

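The genes described here are those of DNA replication and S phase, 47 of the 21965 genes counted in the contused mouse spinal cord. They were listed by symbol, with earlier results of these data known, and cover origin licensing, the MCM2-7 helicase and its activation, the polymerases, the sliding clamp and its loader, strand maturation, nucleotide supply, chromatin copying, the fork checkpoint and the E2F factors. All 47 were found in the table and all 47 passed the filter on low counts. Polyadenylated RNA was sequenced from a 5 mm piece of cord around a moderate T9 contusion (50 kdyn) at 3 days post injury (dpi 3), each library made from a single mouse. The *Bmal1*-/- group held 3 mice (2 females and 1 male) with the germline B6.129-Arntltm1Bra/J allele on C57BL/6, in which *Bmal1*, also named *Arntl*, is targeted in every cell type. The WT group held 4 C57BL/6 mice (2 females and 2 males), and the study's methods give the substrain C57BL/6J for both groups. All 7 mice were young adults with the same injury and no other treatment named in the labels, so the comparison is of genotypes after contusion and not of injured with uninjured cord. Per the study's methods the *Bmal1*-/- mice were bred from heterozygous crosses and WT mice were bought, with littermates where possible. The WT group included a single littermate of the knockouts, and its replicate number was not given in the sources used here.

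A cell copies its genome in S phase. Licensing factors first load the MCM2-7 helicase on origins, CDC45 and the GINS complex then turn it into a moving motor, and polymerases copy both strands while PCNA holds them on the template. Transcription of these genes is largely tied to E2F factors, which the RB family holds back in resting cells, so their mRNAs are widely used as a sign of cycling cells. In the injured cord, microglia, infiltrating macrophages, endothelial cells, oligodendrocyte precursors and astrocytes are among the cells known to divide in the days after contusion. In bulk tissue, fewer cells of a type and less RNA per cell cannot be told apart.

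The libraries held 38529644 to 44096737 counts, so that the counts of the members ran from 33 (*Orc1*) to 4376 (*Pcna*) per library, and 15743 genes were tested. *Arntl* itself was at 24.1, 24.2 and 22.5 CPM (counts scaled by library size and TMM factors) in the knockout-labelled libraries and at 14.7, 15.3, 11.9 and 13.4 CPM in WT. The count was thus higher in the libraries labelled *Bmal1*-/- (log2 fold change 0.77, adjusted p = 0.0155 by edgeR's quasi-likelihood test), which goes against a loss of the transcript. It covers the whole gene and does not measure the targeted exons alone, so it does not check the genotype, and a library is called *Bmal1*-/- here only as labelled. WT replicate 3 stood apart on the leading principal components of all genes (51.4 on the first and 36.9 on the second, where no other WT library passed 19.5 and 7.2). Results are therefore given with and without it. Markers of the labelled tissue were abundant in every library, with the 6 oligodendrocyte markers summing to 22890 CPM or more.

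All 47 replication genes had lower fitted levels in the libraries labelled *Bmal1*-/-, by a median log2 fold change of -0.65 or 36.2%. Of all genes tested, 51.1% lay below 0 and the median was -0.006. The values ran from -1.36 for *Rrm2* to -0.15 for *Gins4*. In 41 of the 47 every library labelled *Bmal1*-/- was below every WT library, against 13.5% of all genes tested. An unadjusted p under 0.05 with a lower level was reached by 41 members, against 12.2% of all genes. Only 1 member, *Gins2*, passed the adjusted threshold of 0.05 in edgeR, adjusted by Benjamini-Hochberg over all 15743 genes, where 0.915% of all genes were called lower. The adjusted p of the other 46 ran from 0.0551 to 0.361, and 16 members were under 0.1. DESeq2, the tool of the study's methods, called 29 of the 47 lower, against 5.63% of the genes it tested.

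The size of the gap varied with the mouse. WT replicate 3 was the highest of the 7 libraries for all 47 members, *Bmal1*-/- replicate 3 was the lowest for 44, and WT replicate 2 was the lowest WT library for 40. Averaged over the members as log2 CPM and set against the mean of the WT libraries, the level was -0.55, -0.57 and -0.80 in the knockout-labelled libraries and -0.11, -0.27, 0.42 and -0.05 in WT. The genotypes did not overlap on this scale, and the gap between WT replicates 2 and 3 was wider than the gap between WT replicate 2 and *Bmal1*-/- replicate 1. Without WT replicate 3 the median log2 fold change was -0.46, nearer to 0, yet 26 of the 47 members passed adjusted p 0.05 in edgeR, against 2.8% of all genes tested in that fit. Without WT replicate 2 the count was 2 members, and without any other single library it was 0. The count of all genes called lower also varied between these fits and was highest without WT replicate 3, as given in the closing section. With both sexes taken apart, the median difference of mean log2 CPM was -0.37 among females (2 against 2 libraries) and -1.02 among males (*Bmal1*-/- replicate 3 against WT replicates 3 and 4), with no test. The male value thus includes WT replicate 3, the highest library for all 47. On the averaged scale above, the males stood at -0.80 against 0.42 (WT replicate 3) and -0.05 (WT replicate 4).

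**Figure D1:**
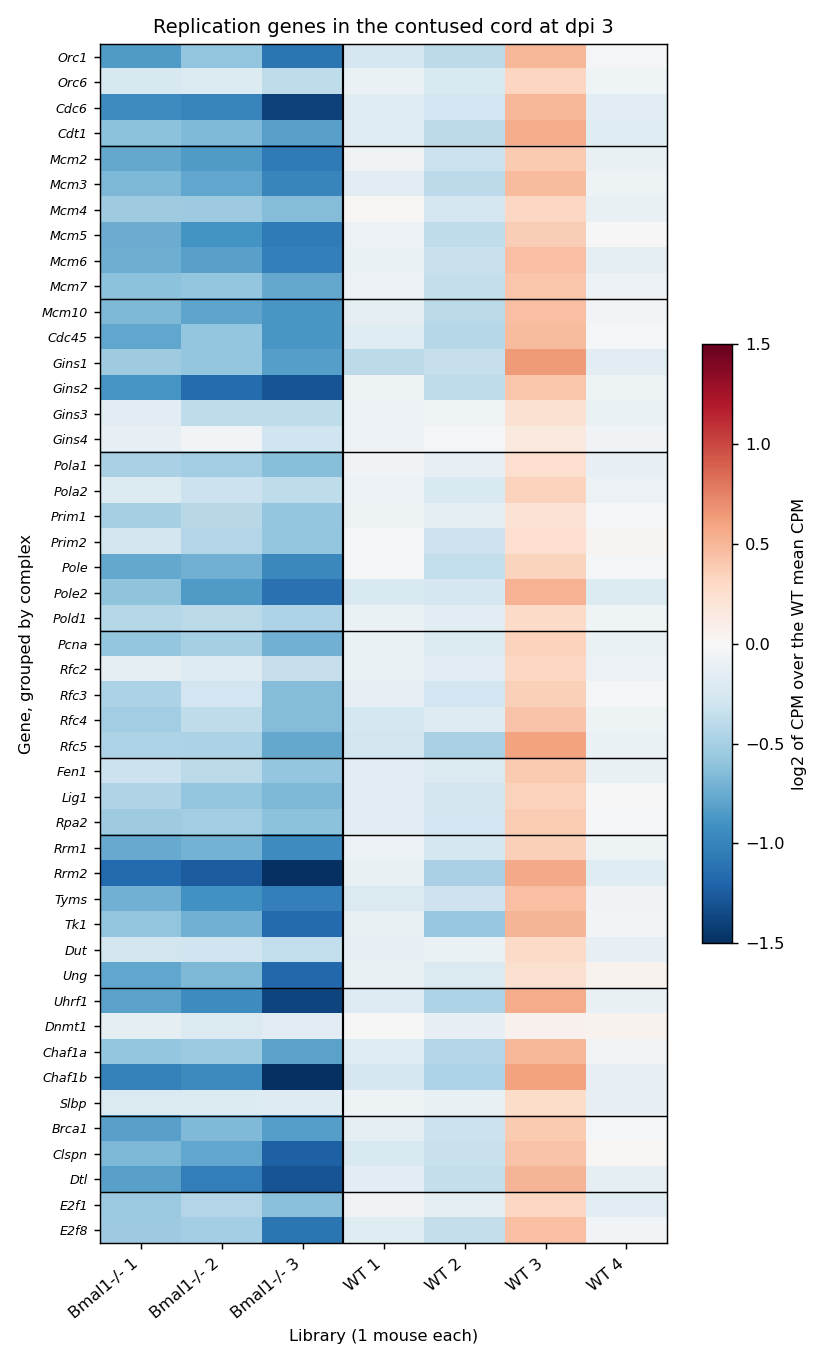
Level of each of the 47 replication genes (rows, grouped by complex with lines between groups) in each library (columns), as log2 of its CPM over the mean CPM of the 4 WT libraries, from blue (lower) to red (higher). WT replicate 3 is the highest library for all 47 genes, though only slightly above the WT mean for *Dnmt1*, and *Bmal1*-/- replicate 3 is the lowest for 44.

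Promoters were read because all members lay lower and many are known E2F targets. RefSeq promoter windows (assembly GRCm38.p6, 250 bases before to 50 bases after a start site) matched 40 of the 47 members, and those of *Mcm4*, *Pole*, *Gins1*, *Prim2*, *Rfc2*, *Gins4* and *Gins2* were not in the table used here. The 250 bases before the start site are shown for the 4 members of lowest p that hold an E2F motif there and no annotated exon, read 5′ to 3′ on the strand of the gene. Capitals mark TTTGGCGC, TTTCGCGC or TTTCCCGC on either strand. *Mcm5* is from chr8:75109259-75109508 (plus strand), *Pola1* from chrX:93632156-93632405 (minus), *Mcm6* from chr1:128359706-128359955 (minus) and *Uhrf1*, at another of its annotated start sites, from chr17:56304063-56304312 (plus).
Mcm5: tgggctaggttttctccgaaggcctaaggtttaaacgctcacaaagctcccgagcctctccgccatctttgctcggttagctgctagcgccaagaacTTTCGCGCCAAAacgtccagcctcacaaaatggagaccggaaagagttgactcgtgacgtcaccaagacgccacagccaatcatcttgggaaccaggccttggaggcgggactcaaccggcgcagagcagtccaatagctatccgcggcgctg
Pola1: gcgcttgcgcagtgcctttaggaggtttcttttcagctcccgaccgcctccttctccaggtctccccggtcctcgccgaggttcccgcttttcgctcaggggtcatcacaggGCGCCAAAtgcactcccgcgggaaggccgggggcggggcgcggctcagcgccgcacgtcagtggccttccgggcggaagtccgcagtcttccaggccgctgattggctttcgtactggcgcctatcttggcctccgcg
Mcm6: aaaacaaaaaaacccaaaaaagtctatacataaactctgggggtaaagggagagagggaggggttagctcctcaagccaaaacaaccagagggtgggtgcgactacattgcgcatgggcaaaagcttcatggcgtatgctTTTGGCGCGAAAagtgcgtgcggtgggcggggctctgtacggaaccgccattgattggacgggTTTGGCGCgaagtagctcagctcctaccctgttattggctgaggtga
Uhrf1: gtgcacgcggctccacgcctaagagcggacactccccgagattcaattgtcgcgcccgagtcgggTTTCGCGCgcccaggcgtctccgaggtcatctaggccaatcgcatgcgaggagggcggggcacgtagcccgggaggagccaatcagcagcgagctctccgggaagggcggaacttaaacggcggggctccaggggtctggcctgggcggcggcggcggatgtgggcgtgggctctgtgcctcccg

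In *Mcm5* the capitals hold TTTCGCGC on the strand of the gene and TTTGGCGC on the other strand, which overlap. *Mcm6* holds the reverse, TTTGGCGC on the strand of the gene overlapping TTTCGCGC on the other, and a further TTTGGCGC, 47 to 40 bases before the start site. Any of the 3 E2F motifs was found in the windows of 17 of the 40 members (42.5%), against 2.12% of 27025 genes with a window and 33.3% of 51 other replication genes. Among 27 mitotic genes it was found in 3.7%. A gene with several start sites was counted where any of its windows held the motif. TTTGAA, the CHR element known from genes of G2 and mitosis, showed another order, with 15% of the members, 77.8% of the mitotic genes and 20.2% of all genes. Of the genes tested 14.6% held it, near the share of the members, as did 21.6% of the other replication genes. ATTGG, the CCAAT box read on the other strand, was in 62.5% of the members and 41.1% of all genes. The other replication genes held it in 47.1% and the mitotic genes in 77.8%. CACGTG, the E-box that the BMAL1 and CLOCK dimer is known to bind, was in 12.5% of the members (*Pola2*, *Fen1*, *Lig1*, *Tyms* and *Chaf1a*) and 8.09% of all genes. It was in 10.9% of the genes tested, 13.7% of the other replication genes and 7.41% of the mitotic genes, so the members were close to these shares. Of the 24 E2F matches in the members, 14 lay before the start site and 10 after it. The median log2 fold change was -0.81 for the 17 members with an E2F motif (-1.10 to -0.17) and -0.64 for the 23 without (-1.36 to -0.21), so the ranges overlapped widely. These matches describe letters in a window and show no binding.

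**Figure D2:**
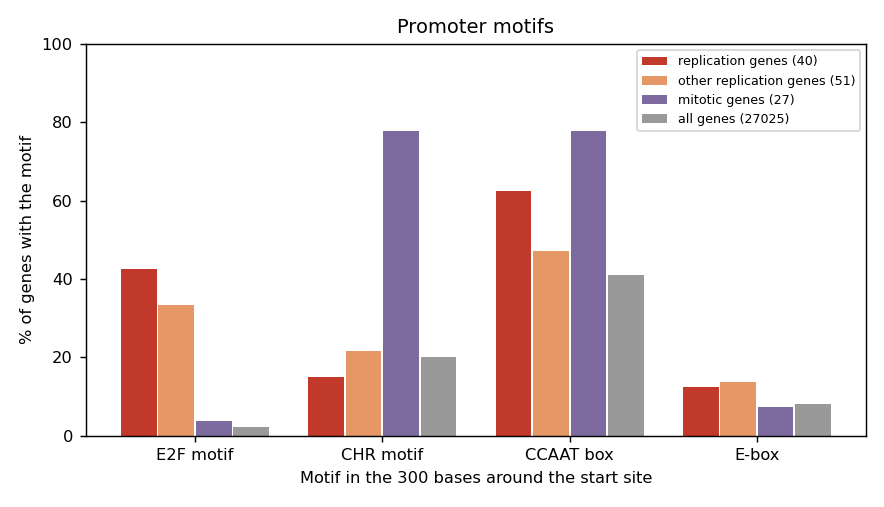
Share of genes (vertical axis, %) whose RefSeq promoter window of 300 bases holds each motif on either strand, for 40 replication genes, 51 other replication genes, 27 mitotic genes and all 27025 genes with a window. The E2F motif is in 42.5% of the replication genes against 3.7% of the mitotic genes, and the CHR motif is in 15% against 77.8%.

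Origin licensing was covered by 4 members, with a median log2 fold change of -0.76. *Cdc6*, the ATPase that loads MCM2-7 on the origin, was at 4.32, 4.16 and 3.15 CPM in the knockout-labelled libraries (replicates 1 to 3, the order used throughout), against 7.35, 6.79, 11.8 and 7.36 CPM in WT (replicates 1 to 4). The genotypes did not overlap, and the log2 fold change was -1.10 (SE 0.23, adjusted p = 0.0714 by edgeR). *Orc6*, a subunit of the origin recognition complex, was at 19.6, 20.1 and 17.8 CPM against 21.7, 19.7, 29.1 and 22.3 CPM in WT. Its *Bmal1*-/- replicate 2 lay above WT replicate 2, and its log2 fold change was -0.28 (adjusted p = 0.285). *Orc1*, the largest subunit, and *Cdt1*, which brings the helicase to the origin, lay between them at -0.83 and -0.69, and neither passed the test. The subunits *Orc2* to *Orc5*, which are not among the 47, stood at -0.17, 0.06, 0.02 and 0.08 with none past the threshold.

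All 6 subunits of the MCM2-7 helicase lay below WT without overlap between the genotypes, with a median log2 fold change of -0.83. None of the 6 passed adjusted p 0.05 in edgeR on all libraries (0.0579 to 0.124), all 6 did in DESeq2, and all 6 did in edgeR without WT replicate 3. *Mcm5* was at 25.7, 23.2 and 20.6 CPM in the knockout-labelled libraries and 40.5, 33.1, 55.7 and 42.9 CPM in WT. Its lowest WT library was thus above its highest library labelled *Bmal1*-/-, and its log2 fold change was -0.89 (SE 0.18, adjusted p = 0.0607), a level 46.2% lower. *Mcm4* was at 30.8, 30.7 and 28.6 CPM against 45.0, 37.1, 55.3 and 41.2 CPM in WT. It had the smallest difference of the ring, a log2 fold change of -0.57 (SE 0.13, adjusted p = 0.0861). *Mcm2*, *Mcm6*, *Mcm3* and *Mcm7* lay between them at -0.89, -0.85, -0.81 and -0.65.

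The ring holds its 6 subunits in equal number, and their levels were read per kb of transcript, as CPM divided by transcript length. *Mcm6* was the highest subunit in all 7 libraries, from 11.6 CPM per kb in *Bmal1*-/- replicate 3 to 32.2 CPM per kb in WT replicate 3. The lowest subunit was *Mcm5* in the 3 knockout-labelled libraries and WT replicates 1 and 2, and *Mcm4* in WT replicates 3 and 4. The highest subunit exceeded the lowest by 1.82 to 2.09 times in the 7 libraries, lowest in WT replicate 1 and highest in WT replicate 3.

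**Figure D3:**
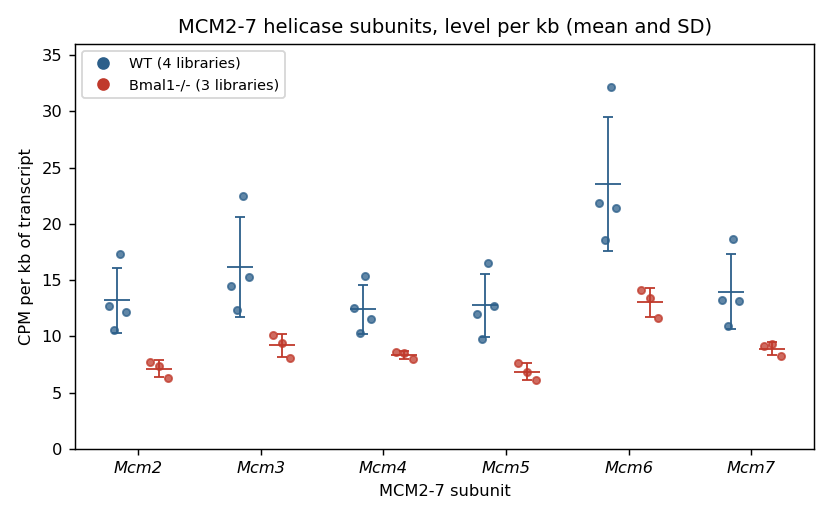
Level of the 6 MCM2-7 subunits (horizontal axis) in CPM per kb of transcript (vertical axis), with 1 point per library, WT in blue and libraries labelled *Bmal1*-/- in red, and the mean and SD of each group as bars. *Mcm6* is the highest subunit in every library, and the points of the genotypes do not overlap for any subunit.

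Helicase activation held the member past the threshold. *Gins2*, a subunit of the GINS complex that joins CDC45 and MCM2-7 in the active helicase, was at 8.08, 6.68 and 6.07 CPM in the knockout-labelled libraries and 14.2, 11.5, 19.9 and 14.2 CPM in WT. The genotypes did not overlap, and *Gins2* fell by 1.10 on the log2 scale (SE 0.20, adjusted p = 0.0495 by edgeR), 53.4% lower. The call was held without WT replicate 3 (adjusted p = 0.0178) and was lost without any of the other 6 libraries in turn, with adjusted p from 0.0516 without WT replicate 2 to 0.227 without *Bmal1*-/- replicate 3. It was also lost with the GC content and length trend removed (adjusted p = 0.0538). The gene lies at chr8:120578633-120589304 on the minus strand of GRCm38, and an exon of *Gse1* overlaps it on the other strand. The sources used here do not state whether counting used strand, so it is uncertain how reads in the shared stretch were assigned. Exons of another gene on the other strand overlap 15 of the 47 members in all. *Gins4*, another subunit of the same complex, was at 23.6, 25.02 and 20.8 CPM against 24.2, 25.2, 28.5 and 24.7 CPM in WT. These groups overlapped, and its log2 fold change of -0.15 was the smallest of all 47 (SE 0.09, adjusted p = 0.361). *Gins1* and *Gins3* stood at -0.64 and -0.31, *Cdc45* at -0.74 and *Mcm10*, which helps start unwinding, at -0.78, and none of these passed.

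**Figure D4:**
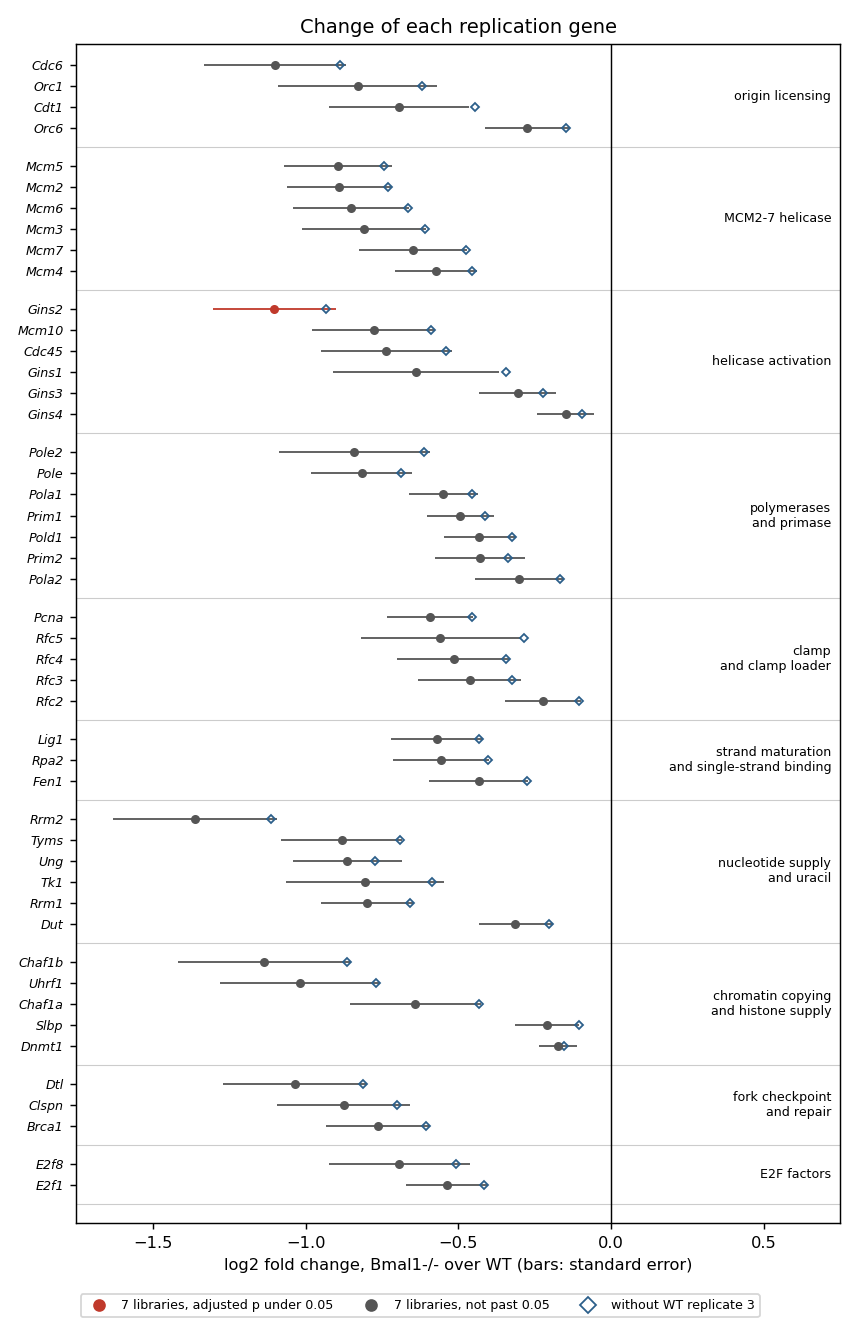
Log2 fold change of each replication gene, libraries labelled *Bmal1*-/- over WT (horizontal axis), with genes grouped by complex and ordered within it. Circles with bars are the edgeR estimate and its standard error on all 7 libraries (red where adjusted p is under 0.05, which is *Gins2* alone), and open diamonds are the estimate without WT replicate 3. All 47 circles and all 47 diamonds lie below 0, and the diamonds lie nearer to it.

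The polymerases and primase had a smaller median of -0.49. *Pole2*, the accessory subunit of polymerase epsilon on the leading strand, was at 2.47, 2.07 and 1.73 CPM in the knockout-labelled libraries and 3.19, 3.14, 5.37 and 3.25 CPM in WT. WT replicate 3 was far above the other WT libraries here, and the log2 fold change of -0.84 (SE 0.25, adjusted p = 0.143) was -0.61 without it. *Pola2*, the regulatory subunit of polymerase alpha, was at 14.1, 13.04 and 12.5 CPM against 15.3, 13.9, 20.6 and 15.3 CPM in WT. Its groups overlapped and its log2 fold change was -0.30 (adjusted p = 0.271). The catalytic subunits stood at -0.82 for *Pole*, -0.55 for *Pola1*, which starts each strand, and -0.43 for *Pold1* of the lagging strand. The primase subunits *Prim1* and *Prim2*, which lay down the RNA primer, stood at -0.49 and -0.43.

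The sliding clamp and the loader that opens it had a median of -0.52. *Pcna*, the clamp itself, was at 57.6, 61.0 and 52.3 CPM in the knockout-labelled libraries and 80.5, 73.8, 109.2 and 80.0 CPM in WT. The groups did not overlap, and the log2 fold change was -0.59 (SE 0.14, adjusted p = 0.0927). *Rfc2*, a subunit of the loader, was at 52.2, 50.4 and 45.3 CPM against 53.7, 51.4, 71.1 and 53.9 CPM in WT, so that *Bmal1*-/- replicate 1 lay above WT replicate 2. Its log2 fold change was -0.22 (adjusted p = 0.319) and -0.11 without WT replicate 3. *Rfc5*, *Rfc4* and *Rfc3* stood at -0.56, -0.52 and -0.46. Per kb of transcript *Pcna* was the most abundant of the 47, at 56.6 CPM per kb in WT, and *Orc1* the least, at 0.593 CPM per kb. Named pseudogenes of *Pcna* and of *Tyms* are annotated, and how reads shared with them were counted was not given.

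The 3 listed members of strand maturation and single-strand binding gave a narrow range. *Lig1*, the ligase that seals Okazaki fragments, was at 34.4, 31.4 and 29.7 CPM in the knockout-labelled libraries and 42.2, 39.1, 60.2 and 47.4 CPM in WT. *Fen1*, the nuclease that trims their flaps, was at 25.5, 24.1 and 21.3 CPM against 28.6, 27.4, 41.9 and 29.6 CPM. Neither overlapped, with log2 fold changes of -0.57 (adjusted p = 0.117) and -0.43 (adjusted p = 0.199), and *Rpa2*, which coats single-stranded DNA, stood at -0.56. The range was wider among related genes not among the 47. *Exo1*, *Dna2*, *Rpa1*, *Rpa3* and *Rnaseh2a* stood at -1.02, -0.41, -0.35, -0.26 and 0.11, with none past the threshold.

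Nucleotide supply held the largest difference of the list. *Rrm2*, the small subunit of ribonucleotide reductase, which makes deoxyribonucleotides, was at 26.1, 24.5 and 17.4 CPM in the knockout-labelled libraries and 53.7, 41.5, 86.2 and 51.5 CPM in WT. The groups stood well apart, but the WT libraries themselves spanned from 41.5 to 86.2 CPM, and the log2 fold change of -1.36 (SE 0.27) had an adjusted p of 0.0607 in edgeR. Without WT replicate 3 it was -1.11, with an adjusted p of 0.0178. *Dut*, which removes dUTP, was at 17.8, 17.7 and 16.8 CPM against 19.9, 20.3, 26.5 and 19.97 CPM in WT, without overlap, at a log2 fold change of -0.31 (adjusted p = 0.206). *Tyms* and *Tk1*, which make thymidylate by the de novo and the salvage route, stood at -0.88 and -0.81, *Rrm1*, the large reductase subunit, at -0.80 (adjusted p = 0.0551) and *Ung*, which excises uracil from DNA, at -0.86.

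Partner subunits of the same enzyme or factor were also compared as ratios. The ratio of *Rrm2* to *Rrm1* CPM was 0.53, 0.482 and 0.405 in the knockout-labelled libraries and 0.69, 0.602, 0.812 and 0.657 in WT. The ratio was lower in 3 of 3 libraries, by 0.55 on the log2 scale for the group means (0.47 without WT replicate 3). An exact two-sided permutation test gave p = 0.0286, the smallest that 3 against 4 libraries allow, and 0.0477 after Benjamini-Hochberg adjustment over the 5 partner pairs compared. *Chaf1b* to *Chaf1a*, subunits of the factor that places histones behind the fork, gave 0.334, 0.343 and 0.28 against 0.431, 0.444, 0.488 and 0.427, with the same exact p values. The ratio of *Pola2* to *Pola1* was higher, at 1.02, 0.966 and 1.0 against 0.812, 0.781, 0.89 and 0.854, again with an exact permutation p of 0.0286 and 0.0477 adjusted. The ratio of *Pole2* to *Pole* overlapped between the genotypes (exact permutation p = 0.971), as did that of *Prim2* to *Prim1* (exact permutation p = 0.571). The pairs were compared with the fold changes of these genes already known, and no other pairs of subunits were tested. The adjustment over 5 pairs does not cover that choice, so these p values describe the 5 ratios and are no independent support.

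Chromatin copying had a median of -0.64 and the widest range after nucleotide supply. *Chaf1b* was at 5.03, 5.27 and 3.60 CPM in the knockout-labelled libraries and 8.55, 7.40, 15.5 and 9.36 CPM in WT. Its log2 fold change was -1.14 (SE 0.28, adjusted p = 0.102), and -0.86 without WT replicate 3. *Dnmt1*, the maintenance DNA methyltransferase, was at 83.8, 79.8 and 82.4 CPM against 92.9, 84.9, 96.3 and 95.7 CPM in WT. The groups were close without overlap, at a log2 fold change of -0.17 (SE 0.06, adjusted p = 0.192). *Uhrf1*, which brings DNMT1 to copied DNA, stood at -1.02, *Chaf1a* at -0.64 and *Slbp*, which binds histone mRNA, at -0.21.

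The fork checkpoint and repair genes had the lowest median of the 10 groups, -0.88, from 3 members. *Dtl*, which marks CDT1 for breakdown in S phase, was at 6.28, 5.41 and 4.52 CPM in the knockout-labelled libraries and 9.87, 8.61, 15.8 and 9.96 CPM in WT. *Brca1*, a repair factor at stalled forks, was at 8.36, 9.33 and 8.32 CPM against 13.4, 11.8, 19.3 and 14.4 CPM. Both were free of overlap, with log2 fold changes of -1.03 (adjusted p = 0.0811) and -0.76 (adjusted p = 0.0802), and *Clspn*, the claspin adaptor of the checkpoint, stood at -0.88. Of the E2F factors, *E2f8*, a repressor, was at 7.78, 7.98 and 5.30 CPM against 9.999, 8.87, 15.5 and 11.1 CPM in WT. *E2f1*, an activator, was at 12.8, 13.9 and 12.2 CPM against 18.1, 17.0, 23.3 and 16.7 CPM in WT. Neither overlapped, and their log2 fold changes were -0.69 and -0.54 (adjusted p = 0.175 and 0.103).

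The 6 members whose genotypes overlapped were *Orc6*, *Gins4*, *Pola2*, *Prim2*, *Rfc2* and *Rfc5*, with log2 fold changes from -0.56 to -0.15. Across the 47 genes, those that stood higher in WT replicate 3 than in the other WT libraries also had lower fold changes in the fit that left this library out (Pearson r = -0.52, Spearman rho = -0.53). This is a description across genes, which are not independent replicates, and the other WT libraries enter both measures. WT replicate 3 exceeded the mean of the other WT libraries by 1.06 times for *Dnmt1* to 1.91 times for *Gins1*.

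A further 67 replication genes, taken from the same pathways and not among the 47, were read beside them. Of these 59 had a fold change below 0, the median was -0.35, and 43 were lower without overlap, against 13.5% of all genes. None passed adjusted p 0.05 as lower in edgeR. An unadjusted p under 0.05 with a lower level was reached by 39, against 12.2% of all genes. DESeq2 called 23 lower, against 5.63% of the genes it tested. In edgeR without WT replicate 3, 14 were called lower, against 2.8% of all genes tested in that fit. *Ccna2*, the cyclin of S and G2 phase, stood at -0.94, *Ccne2* and *Ccne1*, the E cyclins of S phase entry, at -0.75 and -0.20, *Chek1*, the checkpoint kinase, at -0.97 and *Gmnn*, the inhibitor of CDT1, at -0.74.

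Only 1 of the 67 passed as higher, against 0.654% of all genes called higher. *Rb1*, which encodes the RB protein that holds back E2F factors, was at 108.6, 103.3 and 96.7 CPM in the knockout-labelled libraries and 72.6, 74.4, 72.2 and 72.1 CPM in WT. The WT libraries lay close together, WT replicate 3 included, and all libraries labelled *Bmal1*-/- lay above them. *Rb1* rose by a log2 fold change of 0.50 (SE 0.06, adjusted p = 0.00854 by edgeR). The call was lost without *Bmal1*-/- replicate 1 (adjusted p = 0.0656) and held without each of the other 6 libraries. Its relatives *Rbl1* (p107), itself known as an E2F target, and *Rbl2* (p130) stood at -0.71 and 0.18, neither past the threshold. The atypical factor *E2f7* stood at -0.89, and the other E2F genes outside the 47 ran from -0.56 for *E2f2* to -0.05 for *E2f3*.

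The 30 mitotic genes, which act after S phase, had a median log2 fold change of -0.94, and 29 lay below 0. Of these 4 fell in edgeR, against 0.915% of all genes, namely *Ckap2* (-1.43, adjusted p = 0.0329), *Prc1* (-1.19, adjusted p = 0.0339), *Hmmr* (-1.06, adjusted p = 0.0416) and *Aspm* (-0.94, adjusted p = 0.0465), all genes of the spindle or midzone. The 4 calls were held without WT replicate 2 or 3 and were lost without any other single library. DESeq2 called 27 of the 30 lower, against 5.63% of the genes it tested. Without overlap 28 were lower, against 13.5% of all genes tested. Whether the mitotic genes differ from the replication genes was not tested.

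Marker lists of the cells in the lesion were read in the same libraries, and their part in the result was not tested. The 9 endothelial markers were all below 0 (median -0.61) and summed to 409.4 to 479.7 CPM in the libraries labelled *Bmal1*-/- against 499.6 to 842 CPM in WT, with WT replicate 3 the highest for all 9 and *Cdh5* called lower (-0.85, adjusted p = 0.0466). The *Cdh5* call held without WT replicate 3 (adjusted p = 0.0165) and was lost without any other single library (adjusted p up to 0.216). Of the 10 macrophage markers 8 were below 0 (median -0.49) and none passed, with sums of 1093 to 1441 CPM against 1043 to 2010 CPM and WT replicate 3 the highest for 9. The 6 neutrophil markers, all below 0 with none called, summed to 24.9 to 53.0 CPM against 29.8 to 108.3 CPM, and again all 6 were highest in WT replicate 3. The 5 erythroid markers (median -2.33, all 5 without overlap and none called) summed to 21.2 to 49.8 CPM against 115.3 to 353.2 CPM, with WT replicate 3 the highest and *Bmal1*-/- replicate 3 the lowest for all 5, as for most replication genes.

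Among the resident cells, microglia markers (5 of 7 below 0, median -0.10) summed to 981.2 to 1136 CPM against 987 to 1278 CPM, and oligodendrocyte precursor markers (2 of 8 below 0, median 0.06) to 1056 to 1178 CPM against 957.6 to 1064 CPM. Oligodendrocyte markers stood at a median of -0.01 and pericyte markers at -0.11, each with 3 of 6 below 0. Astrocyte markers (2 of 6 below 0, median 0.22) summed to 14100 to 16780 CPM against 9524 to 13610 CPM, and neuron markers (0 of 6 below 0) stood at 0.38. No gene of these 6 lists was called. The neuron sum was 4945 to 5895 CPM against 2022 to 4895 CPM, with WT replicate 3 the lowest. Fibroblast markers (median -1.18, *Fmod* and *Fbln2* called lower) summed to 337.5 to 2303 CPM against 1229 to 1977 CPM. Their mean log2 CPM, set against the WT mean, was -1.85, -0.13 and -2.08 in the knockout-labelled libraries and 0.05, 0.28, 0.11 and -0.45 in WT. The *Fmod* call held without each library in turn, and the *Fbln2* call was lost without *Bmal1*-/- replicate 1 or 3 or WT replicate 1 or 4. Skeletal muscle markers (median -3.38, 6 of 7 called) summed to 3.81 to 4.72 CPM against 40.3 to 57.7 CPM, and Schwann cell markers (median -2.32, none called) to 7.19 to 13.5 CPM against 21.5 to 240.7 CPM. No marker of any list was at 0 in all libraries.

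**Figure D5:**
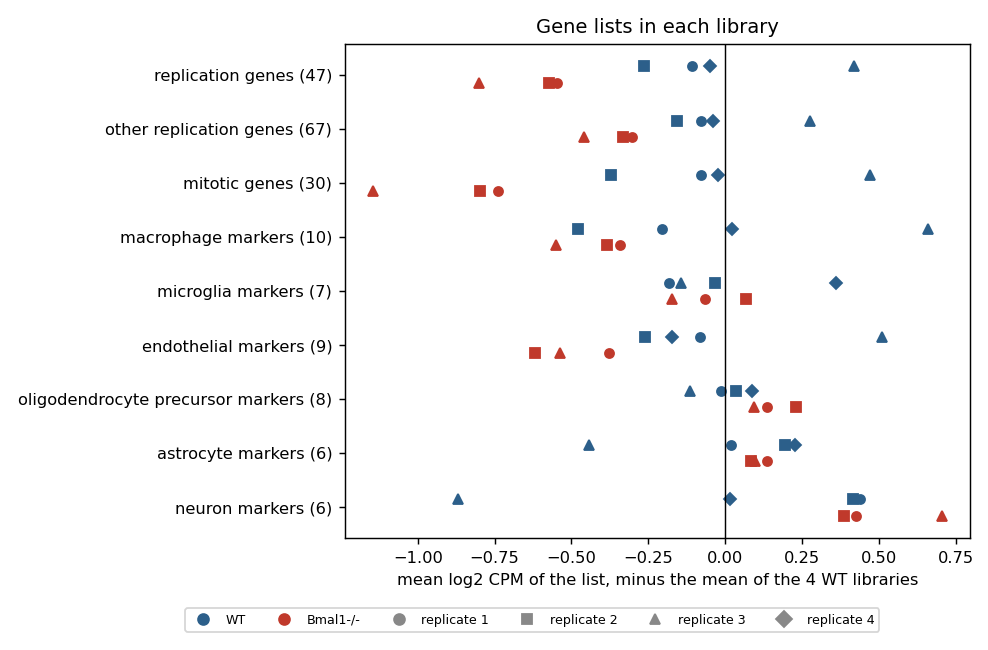
Mean log2 CPM of each gene list minus the mean of the 4 WT libraries (horizontal axis), with 1 symbol per library, WT in blue and libraries labelled *Bmal1*-/- in red, and the symbol shape giving the replicate number. For the replication genes the red symbols lie at -0.55, -0.57 and -0.80, below every blue symbol, and WT replicate 3 (blue triangle) is the highest at 0.42, as it is for the macrophage and endothelial markers.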

How the data were processed

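The libraries were poly-A selected and strand-specific. Per the study's methods the authors used Tophat2 for alignment to GRCm38 and HTSeq (version 0.10.0 in the submitters' processing notes) for gene counts, and they deposited these raw counts without normalization. The annotation release and strand setting of the counting were not given in the sources used here. Low counts were removed with filterByExpr by genotype, TMM factors were applied, and the quasi-likelihood test of edgeR 4.0.16 (with limma 3.58.1 in R 4.3.3) compared the genotypes over all 7 libraries. Adjusted p-values are Benjamini-Hochberg values over all genes tested, called under 0.05. A fold change is *Bmal1*-/- over WT. On counts simulated for this comparison, over 15642 tested genes, 82 of 100 genes changed by 1 on the log2 scale were recovered with 9 false calls. The changed genes were drawn from those with a mean count above 100, and each gene was simulated independently. Differences of a whole library, such as those of WT replicate 3, were not simulated, so this share is not the recovery to be had for the members.

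The members and all lists, including the 67 other replication genes, the 30 mitotic genes and the cell type markers, were chosen with earlier results of these data known. Values in every library are given for members past the threshold and for the members of largest and smallest absolute fold change in each group and for *Rb1*. Called genes of the mitotic and marker lists are given in brief, and other genes are named with their fold change only. A gene of the other replication list is not reported here. Promoters were to be printed for the 4 members of lowest p with an E2F motif. Windows that hold an annotated exon, or the motif only after the start site, were then passed over. GENCODE mouse release M21 gave gene positions, overlaps and lengths (21939 of 21965 identifiers matched), and RefSeq (GRCm38.p6) gave promoters. Start-site bases were found in a transcript of the gene for 36 of the 40 members. Single ratios were compared with exact permutation tests (scipy 1.17.1). The p-values measure the spread between these mice.

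Alternatives were DESeq2 1.42.0, limma-voom, factors by RLE or the upper quartile, a filter of 1 count or of a mean of 10 counts, a term for sex, the replicate number as a block, correction for GC content and length (also with the block), a draw down to the lowest total and leaving out each library. Values within each sex were added after seeing the data.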

Additional observations from a re-analysis of the deposited data

Results flagged for a closer look

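In 8 of the 47 replication genes WT replicate 3 lay far from the other WT libraries. The gap from this library to the nearest other WT library, divided by the range of the 4 WT libraries, was above the 95% critical value of Dixon's test for 4 samples, 0.829. The ratio was 0.949 for *Dut*, 0.948 for *Pole2*, 0.897 for *Slbp*, 0.884 for *Cdc6*, 0.879 for *Gins3*, 0.87 for *Rfc2*, 0.848 for *Fen1* and 0.829 for *Gins1*. WT replicate 3 was the highest library in each of the 8. The muscle gene *Tnnc2* was also flagged, with a ratio of 0.846 and WT replicate 4 the highest at 4.39 CPM. In all 66 genes were tested in this way and 9 were flagged, where about 1 in 20 is flagged without a true outlier, and the replication genes were not independent of each other. Groups of 3 were not tested.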

How the results depend on the processing

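All 47 replication genes stayed below 0 under all 18 alternatives, and no named gene past the threshold changed direction. *Orc4*, at 0.02, was at -0.02 with the GC content and length trend removed and -0.002 without WT replicate 3. DESeq2 called 922 genes lower and 573 higher, and 29 replication, 23 other replication and 27 mitotic genes lower. The count of replication genes called was 0 with RLE factors, upper-quartile factors, limma-voom, sex as a covariate and the draw to the lowest total, and 1 with the GC content and length trend removed, where *Rrm2* (adjusted p = 0.0496) took the place of *Gins2*. Limma-voom called 2 and the sex covariate 0 mitotic genes. Replicate numbers did not pair the samples (correlations of same-numbered libraries -0.174, 0.183 and -0.295). With the replicate block 0 genes were called lower and 0 higher in all, the median of the replication genes was -0.64, and *Rb1* was not called. The block leaves few degrees of freedom, and WT replicate 4 has no knockout-labelled library of its number. Fewer calls are therefore no sign of a weaker difference. With the block and the GC content and length trend removed 8 were lower and 5 higher, with 0 in each of the 3 lists. Leaving out each library in turn gave 27 to 439 genes lower and 30 to 291 higher, 0 to 26 replication genes (median -0.77 to -0.46), 0 to 14 other replication genes lower and 0 to 1 higher (median -0.40 to -0.24) and 0 to 19 mitotic genes (median -1.06 to -0.79), with the highest counts without WT replicate 3. Within males, WT replicate 3 included, the median was -1.02 for replication and -1.43 for mitotic genes, and -0.59 for the latter within females. Among genes tested, 3.64% held an E2F motif. The cause of these changes was not tested. *Orc1*, at 33 to 101 counts per library, was the member most limited by depth.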
